A study of Mus musculus with 4 samples.

Results

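Forkhead transcription factors bind DNA through a shared winged-helix domain and are named Fox with a letter for the subfamily and a number. The genes described here were taken by name: every probe set whose only platform gene symbol was Fox, 1 letter and a number. This gave 82 of 45101 probe sets and 37 of 18194 genes. A gene's value was the mean of its probe sets. Of the 37 genes, 16 had 1 probe set and 21 had several. A further 2 probe sets that name a forkhead gene together with other genes were left out.

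The study compared mouse embryonic fibroblasts (MEFs, cultured from embryo torsos after removal of head and red organs) of genotype Pf1 -/- and Pf+/+. Pf1, a PHD finger protein, is the product of Phf12 and works in Sin3 and histone deacetylase corepressor complexes. Knockout lines KO2 and KO4 and wild-type lines WT5 and WT6 (the numbers are the labels') were each measured on 1 Affymetrix array, from embryos of day 13.5 or 14.5, with growth in 6% oxygen and harvest at passage 2 to 3. Day and passage are not given per line, and no label says that each line came from its own embryo, so p-values measure only the spread between these lines. The deposited values were centred per probe set on the median of the arrays. They show differences between lines and not how strongly a gene was expressed, so a member that MEFs do not express appears only as noise around 0, and marker levels cannot check the cell type. As a check of the labels, Phf12 probe set 1434922_at stood at -0.37 in KO2, -0.41 in KO4, 0.56 in WT5 and 0.37 in WT6 (limma adjusted p = 0.0213), while 1453579_at did not separate them (difference 0.012, limma adjusted p = 0.965).

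As background, the Foxo factors carry the output of insulin and growth factor signalling: Akt phosphorylates them and keeps them out of the nucleus, and when Akt is quiet they switch on genes for cell cycle exit, stress resistance, autophagy and cell death. Foxd, Foxc and Foxf genes mark and pattern embryonic mesenchyme, the tissue that gives rise to fibroblasts. Foxm1 drives genes of mitosis, and Foxk1 and Foxk2 are known to recruit Sin3, the complex in which Pf1 works.

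The promoters of Foxd1, which rose most among the members, and Foxo3, which fell most, are shown first, as the 250 bases before the annotated start in the RefSeq table of build GRCm38.p6. Of the 37 genes, 24 had an entry there. Capitals mark GC boxes (GGGCGG, on either strand) and CCAAT boxes (CCAAT, on either strand). These are general promoter motifs and do not overlap each other.
Foxd1, chr13:98353995-98354244, plus strand: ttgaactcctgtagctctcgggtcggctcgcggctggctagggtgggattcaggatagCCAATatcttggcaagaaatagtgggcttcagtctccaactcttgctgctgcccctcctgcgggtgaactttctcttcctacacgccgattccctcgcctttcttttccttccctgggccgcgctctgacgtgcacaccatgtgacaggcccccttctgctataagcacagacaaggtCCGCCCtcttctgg
Foxo3, chr10:42276696-42276945, minus strand: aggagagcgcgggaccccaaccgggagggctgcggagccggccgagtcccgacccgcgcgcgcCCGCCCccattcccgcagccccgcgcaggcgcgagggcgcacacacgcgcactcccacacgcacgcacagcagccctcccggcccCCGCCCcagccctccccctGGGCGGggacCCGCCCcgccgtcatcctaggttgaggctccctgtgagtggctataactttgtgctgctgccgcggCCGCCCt
Foxd1 held 1 CCAAT box and 1 GC box, and Foxo3 held 5 GC boxes and no CCAAT box in this window. G and C made up 57.2% of the Foxd1 window and 76.4% of the Foxo3 window. Over the 24 forkhead genes the median was 63.0%, against 52.4% over all 27025 genes with an entry. A GC box was found for 18 of the 24 genes (75%), against 35.4% of all genes, and a CCAAT box for 13 (54.2%), against 37.5%. The forkhead motif GTAAACA was found in 1 of the 24, Foxa1 (4.17%), against 3.54% of all genes.

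Limma called 4 of the 37 forkhead genes, a share near that of all genes. With 2 lines per genotype, a gene that was not called may still differ. Foxd1 and Foxn1 rose in the knockout, Foxo3 and Foxn3 fell, and 33 of 37 did not pass the test (limma adjusted p under 0.05 over all genes). The 4 called genes were 10.8% of the members, against 12.2% of all genes. By direction, 5.41% were called higher against 5.21% of all genes, and 5.41% lower against 6.95%, so the share called lay near the background in either direction. The median difference was -0.021 in log2 units (knockout less wild type, as for every difference here), against -0.0027 over all genes. In 30 of the 37 members the difference was smaller than 0.3 in either direction. The median absolute difference was 0.139, against 0.152 over all genes. The genotypes did not overlap in 19 members, or 51.4% against 58.2% of all genes. Of these, 9 were higher in both knockout lines (against 28.7% of all genes) and 10 lower (against 29.5%). A gap of this kind with a change of at least 1.5-fold was seen in 3 members, Foxd1, Foxc2 and Foxo3 (8.11%, against 9.63% of all genes). Lines of 1 genotype never differed by 2-fold or more at any member (0 of 37 in the knockout and 0 of 37 in the wild type). The same count over all genes is not given here. With every line kept, 8 of the 37 members had an unadjusted limma p under 0.05, as had 5368 of all 18194 genes. The fit was repeated without KO2, KO4, WT5 and WT6 in turn. The difference then ranged from 1.80 to 2.59 for Foxd1 and from 0.36 to 0.49 for Foxn1. It ranged from -0.76 to -0.50 for Foxo3 and from -0.53 to -0.38 for Foxn3. The same fits called 0, 321, 1 and 0 of all 18194 genes.

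**Figure D1:**
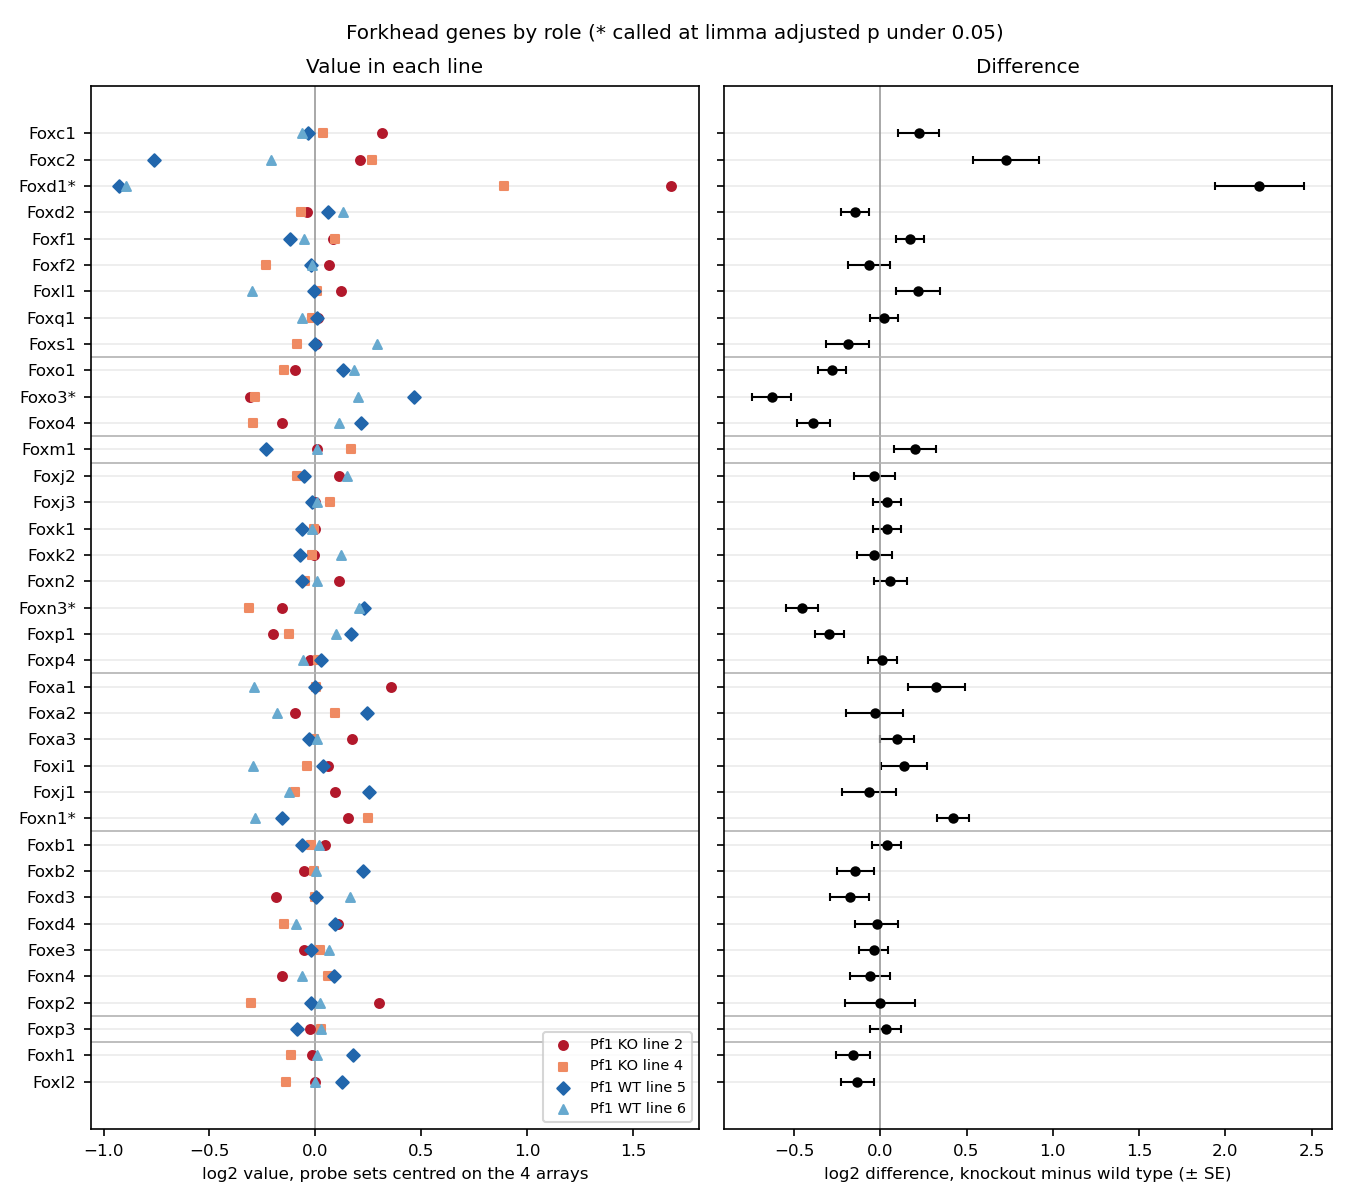
Log2 value of the 37 forkhead genes in each line (left, centred on the arrays) and the difference knockout minus wild type with its SE from limma (right), grouped by role, with called genes starred. Foxd1 stands apart at 2.20, the 3 Foxo genes all lie below 0, and most other members lie within 0.3 of 0.

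Among forkhead genes of mesenchyme and vessels, 1 of 9 was called (11.1%, against 12.2% of all genes). Foxd1, a factor of the retina and of kidney stroma and other embryonic mesenchyme, stood at 1.68 and 0.89 in KO2 and KO4. It stood at -0.93 and -0.89 in WT5 and WT6. The wild-type lines were nearly equal, the knockout lines were 0.79 apart, and the genotypes did not overlap. The increase was 4.59-fold (log2 difference 2.20 ± 0.26 SE, n = 2 lines per genotype, limma adjusted p = 0.0173), measured by 1 probe set, 1418876_at. The difference was 1.80 without KO2 (limma adjusted p = 0.0534), 2.59 without KO4 (0.0316), 2.18 without WT5 (0.107) and 2.22 without WT6 (0.0696).

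Foxc2, a regulator of lymphatic vessels and skeletal mesenchyme, had the next largest positive difference. It stood at 0.21 and 0.27 in the knockout lines and at -0.76 and -0.21 in the wild-type lines. The genotypes did not overlap, but WT5 lay 0.55 below WT6. The difference of 0.73 ± 0.192 SE did not pass (limma adjusted p = 0.0738). It was 0.45 without WT5 and 1.00 without WT6. Foxc2 lies on chromosome 8 in a cluster with Foxf1, a hedgehog target of gut and lung mesenchyme, and Foxl1, a factor of the gut stroma. Their differences were 0.17 ± 0.0811 SE (limma adjusted p = 0.238) and 0.22 ± 0.126 (0.336), so all 3 members of that cluster were positive and none passed. In the cluster on chromosome 13, Foxc1, the close relative of Foxc2, stood at 0.22 ± 0.119, Foxf2 at -0.067 ± 0.122 and Foxq1 at 0.023 ± 0.0819, with limma adjusted p between 0.294 and 0.897. A further cluster, on chromosome 4, holds Foxd2 (-0.15) and the lens factor gene Foxe3 (-0.039), both negative and not called. Foxs1 stood at -0.19.

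Of the 3 Foxo factors, limma called Foxo3 lower (33.3% called, against 12.2% of all genes), and Foxo1 and Foxo4 did not pass. Foxo3, which acts in quiescence, stress resistance and autophagy, stood at -0.31 and -0.29 in KO2 and KO4 and at 0.47 and 0.20 in WT5 and WT6. The knockout lines were almost equal and lay below both wild-type lines. As the mean of 3 probe sets Foxo3 fell 1.55-fold (-0.63 ± 0.115 SE, limma adjusted p = 0.0339). Its probe sets disagreed. 1434831_a_at fell by 1.09 and 1434832_at by 1.11 on the log2 scale (limma adjusted p = 0.0182 and 0.0205 over all probe sets), which is 2.12-fold and 2.16-fold, while 1450236_at stood at 0.30 (0.194), also without overlap. The platform annotation derives 1434831_a_at and 1434832_at from the same source sequence, so they are not independent measurements. The gene's difference was -1.05 as the median of the probe sets and -0.40 without 1434831_a_at, when the call was lost (limma adjusted p = 0.0967). With any line left out it ranged from -0.76 to -0.50 (limma adjusted p from 0.0528 to 0.177), so each of the 4 omissions ended the call.

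Foxo4 stood at -0.16 and -0.29 in the knockout and at 0.21 and 0.11 in the wild-type lines (-0.39 ± 0.0946 SE, limma adjusted p = 0.0618). Probe set 1456753_at of Foxo4 fell 1.64-fold (-0.71, limma adjusted p = 0.0249), whereas 1422149_at overlapped between the genotypes (-0.064). Foxo1, a main effector of insulin signalling, stood at -0.097 and -0.15 against 0.13 and 0.18 (-0.28 ± 0.0817 SE, limma adjusted p = 0.0933). All 4 probe sets of Foxo1 were negative, 3 of them without overlap, and those 3 come from the same source sequence. The gene means of all 3 were negative without overlap, as were those of 29.5% of all genes.

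Of the broadly expressed members, 1 of 8 was called (12.5%, against 12.2% of all genes). Foxn3, a transcriptional repressor with a role in cell cycle checkpoints, stood at -0.16 and -0.31 in the knockout lines and at 0.23 and 0.21 in the wild-type lines. It fell 1.37-fold (-0.45 ± 0.0922 SE, limma adjusted p = 0.042). All 4 of its probe sets were negative, from -0.54 to -0.34, and limma called 2 of them, 1434002_at and 1436925_at. With a line left out the difference lay between -0.53 and -0.38 and the call was lost each time (limma adjusted p between 0.104 and 0.207). Foxp1, a repressor in many tissues, was measured by 8 probe sets. All 8 were negative without overlap, from -0.53 to -0.12, but limma called 0 of them, and the gene mean did not pass (-0.30 ± 0.085, limma adjusted p = 0.0889). Of its probe sets, 3 come from 1 source sequence and 3 from another, so they are not 8 independent measurements. Its lines stood at -0.20 and -0.12 against 0.17 and 0.098. Gene means were likewise negative without overlap for 29.5% of all genes, and the share over all probe sets is not given here. Foxk1 (0.037 ± 0.0797 SE) and Foxk2 (-0.034 ± 0.0994), the Sin3-binding members, had limma adjusted p of 0.82 and 0.874, and their probe sets pointed in both directions. Foxj2, Foxj3, Foxn2 and Foxp4 lay between -0.036 and 0.057.

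**Figure D2:**
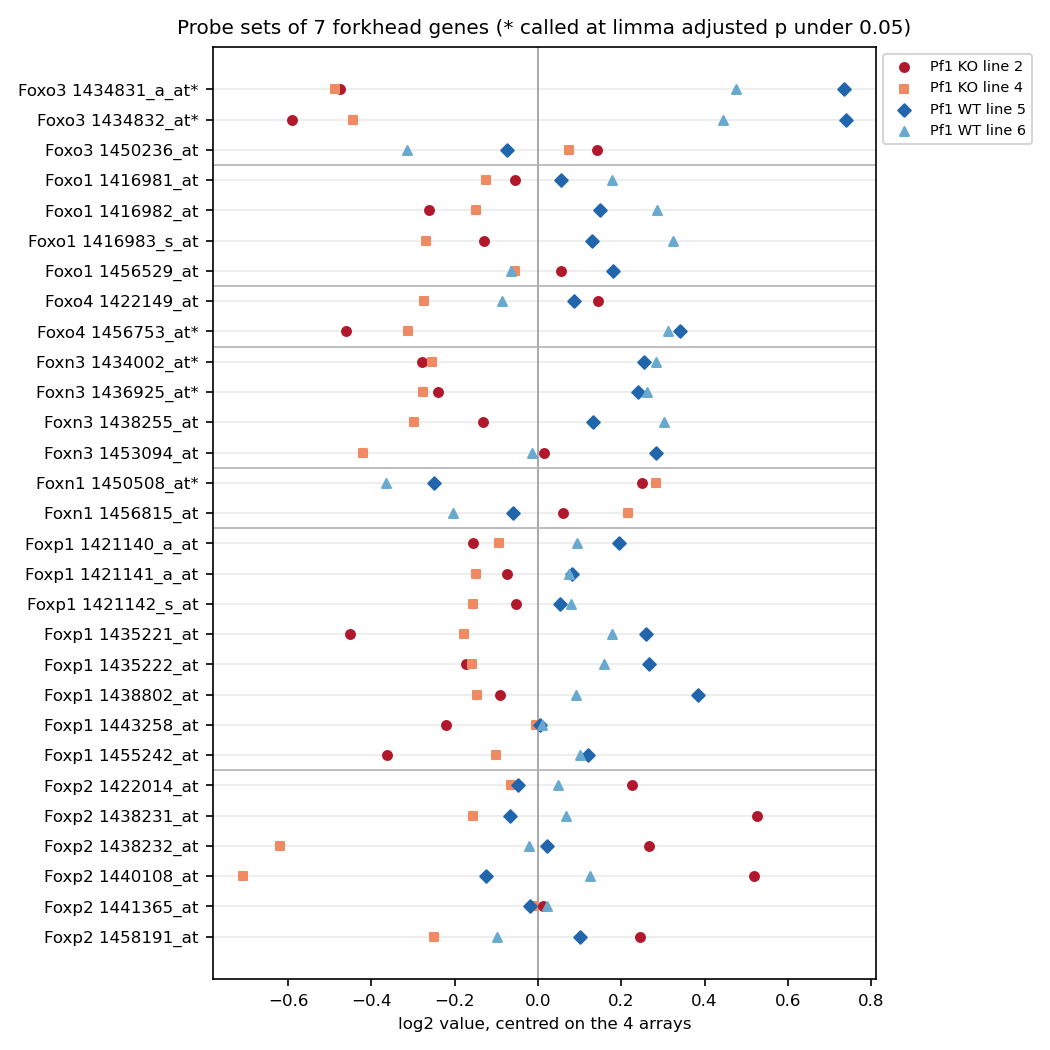
Log2 value in each line for every probe set of Foxo3, Foxo1, Foxo4, Foxn3, Foxn1, Foxp1 and Foxp2, centred on the 4 arrays, with probe sets called by limma starred. The 8 probe sets of Foxp1 and the 4 of Foxn3 point the same way, 1 probe set of Foxo3 opposes the other 2, and in Foxp2 the knockout lines lie apart from each other.

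Foxm1 is the forkhead factor of mitosis. It stood at 0.0065 and 0.17 in the knockout lines and at -0.23 and 0.0062 in the wild-type lines. KO2 and WT6 were thus nearly the same, and the difference of 0.20 ± 0.12 SE did not pass (limma adjusted p = 0.347). Its 4 probe sets were all positive, from 0.04 to 0.41, and 3 of them come from the same source sequence.

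Among members of epithelium and endoderm, limma called 1 of 6 (16.7%, against 12.2% of all genes). Foxn1, the factor of thymic epithelium and hair follicles, stood at 0.16 and 0.25 in the knockout lines and at -0.16 and -0.28 in the wild-type lines. It rose 1.34-fold (0.42 ± 0.093 SE, limma adjusted p = 0.0498), just under the threshold. Probe set 1450508_at was called (0.57, limma adjusted p = 0.0334), and 1456815_at was not (0.27, 0.212). Foxn1 lost its call in 5 of 7 alternatives that kept every line (limma adjusted p from 0.0462 to 0.0558 over the 7) and in each of the 4 with a line left out (0.114 to 0.233). The pioneer factor gene Foxa1 stood at 0.36 and 0.0021 against -0.0021 and -0.29 (0.32 ± 0.164, limma adjusted p = 0.27), so that KO4 and WT5 were nearly equal. Foxa2, Foxa3, Foxi1 and the ciliogenesis factor gene Foxj1 lay between -0.065 and 0.14. Of 12 epithelial markers, 2 rose (16.7%, against 5.21% of all genes), Krt8 (2.42) and Cldn4 (1.66), and 1 fell (8.33% against 6.95%), Krt19 (-0.39). Of the 12 differences 8 were positive and 4 negative, with a median of 0.18. Whether epithelial cells have a part in the Foxn1 difference was not tested. In such bulk samples a change in the number of cells of a type and a change in RNA per cell cannot be told apart.

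Foxn1 also lies near the deleted gene. On chromosome 11, 30 annotated genes separate Phf12 from Foxn1 (build GRCm38.p6), of which 18 were measured. Of these 18, limma called 0 higher and 3 lower, Flot2 (-0.49), Proca1 (-0.62) and Aldoc (-1.70), or 16.7% called against 12.2% of all genes. An unadjusted p under 0.05 was seen for 9 in either direction, and for 5368 of all 18194 genes. The genotypes did not overlap in 15 of the 18 (83.3%, against 58.2% of all genes), 5 higher and 10 lower in the knockout. The median difference was -0.14, with 5 positive and 13 negative. The nearest measured genes, Unc119 and Slc13a2, stood at -0.0015 ± 0.143 SE and 0.022 ± 0.079. Foxn1 was thus the only member of the stretch from Phf12 to Foxn1 that was called higher. Of the nearest measured genes on either side of the other called members, limma called 1, Armc2 (-0.80 ± 0.149, limma adjusted p = 0.0358), with 6 annotated genes between it and Foxo3. The nearest measured genes of Foxd1 stood at 0.084 and -0.037 and those of Foxn3 at -0.048 and -0.082.

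**Figure D3:**
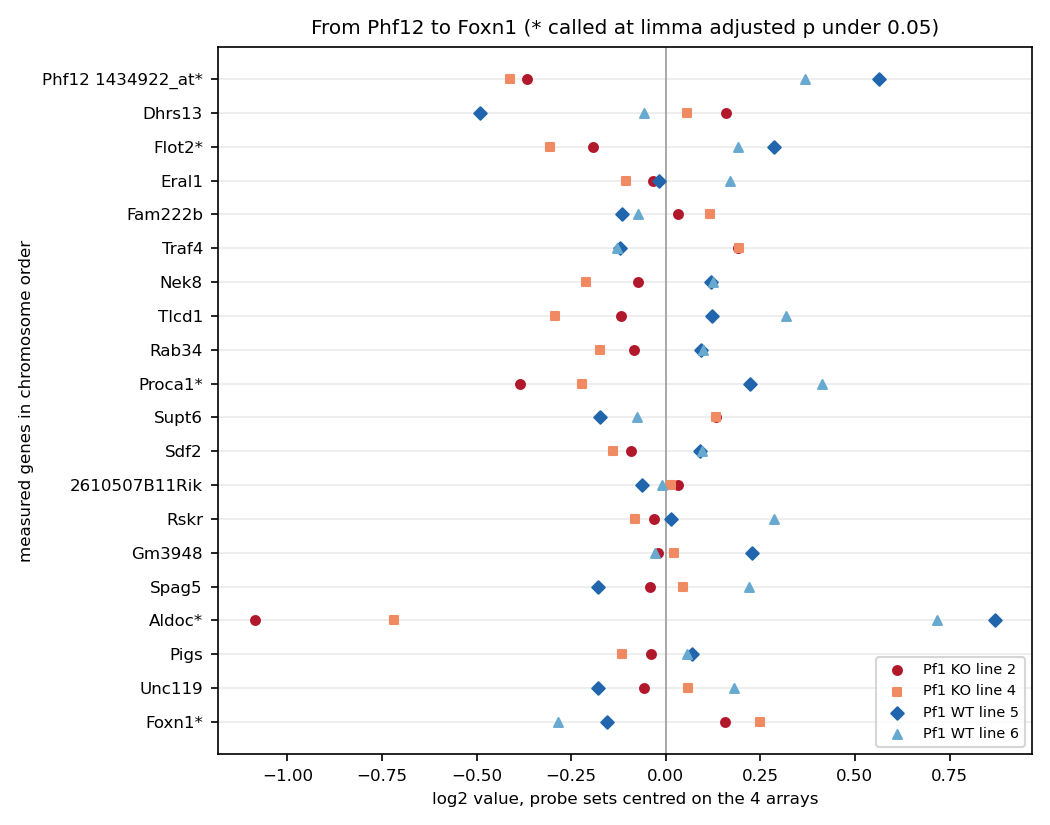
Log2 value in each line, centred on the arrays, for Phf12 (1 probe set) and for the gene means of the measured genes up to Foxn1 in chromosome order, with called genes starred. Aldoc shows the widest separation (-1.70), and Foxn1 is the starred gene with both knockout lines above both wild-type lines.

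The remaining members are known from tissues other than fibroblasts. In the nervous system and eye group limma called 0 of 7, against 12.2% of all genes (0 of the 7 at an unadjusted p under 0.05). Differences ranged from -0.18 (Foxd3, the neural crest factor) to 0.036 (Foxb1). Foxp2, which is known from speech and motor circuits, showed almost no mean difference (-0.0015 ± 0.205 SE, limma adjusted p = 0.999), yet its knockout lines stood at 0.30 and -0.30 and the wild-type lines at -0.023 and 0.023. In probe set 1440108_at KO2 stood at 0.52 and KO4 at -0.71. The difference in Foxp2 thus lay between the knockout lines and not between the genotypes, an observation made after its values were seen. Foxp3, the factor of regulatory T cells, stood at 0.031 ± 0.0874. Foxh1, a Nodal effector of the early embryo, and Foxl2, the ovarian factor, stood at -0.16 and -0.13.

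Probe sets of 1 gene did not always point the same way. Of the 21 members with several probe sets, 11 had all of them on the same side of 0 and 10 on both sides. In the fit over all probe sets, limma called 7 of the 82 (8.54%, against 8.32% of all probe sets). They belonged to 5 genes, the 4 called ones and Foxo4.

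Targets and partners of the forkhead factors were examined through 9 gene lists. Foxo target genes showed the largest share called lower of the 9. Of 47 measured members, 17 fell, 3 rose and 27 did not pass, so 36.2% were called lower against 6.95% of all genes and 6.38% higher against 5.21%. Their median difference was -0.37, against -0.0027 over all genes. Relative to the wild-type mean the median was -0.35 and -0.38 in KO2 and KO4 and 0.017 and -0.017 in WT5 and WT6. The list includes Foxo1 itself and was not divided into genes that Foxo factors switch on and genes they repress. Like the other lists, it was chosen with earlier results of these data known, so its share called is not a test. The shares of all genes also include genes that MEFs may not express.

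Pik3ip1, an inhibitor of PI3 kinase, stood at -0.77 and -0.56 in the knockout and at 0.59 and 0.69 in the wild-type lines, and it fell 2.47-fold (-1.31 ± 0.108 SE, limma adjusted p = 0.0124). The stress-induced mTORC1 inhibitors Sesn1 (-0.90 ± 0.0821) and Sesn3 (-0.69) fell 1.87-fold and 1.61-fold. The autophagy gene Gabarapl1 stood at -0.45 and -0.33 against 0.37 and 0.33 (-0.75 ± 0.0877, 1.68-fold lower). The Cdk inhibitor genes Cdkn2d (-0.83) and Cdkn2b (-0.65) fell 1.78-fold and 1.57-fold. For these 6 genes limma gave adjusted p from 0.0124 to 0.0197, and in none did the genotypes overlap. The other genes of the list that fell, named here to complete the count, were the Cdk inhibitor gene Cdkn1b, the muscle atrophy ligase gene Fbxo32, the Krüppel-like factor genes Klf2 and Klf4, the Myc antagonist gene Mxi1, Gadd45a, Bbc3, Pink1, Bnip3, Eif4ebp1 and Hbp1, at -1.11 to -0.42.

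The 3 Foxo targets that rose were Pdk4, which restrains pyruvate oxidation (1.90 ± 0.387 SE, limma adjusted p = 0.0422), Cited2 (0.98) and Rictor, a subunit of mTORC2 (0.52). Pdk4 stood at 1.73 and 0.58 in the knockout against -0.92 and -0.58, with the knockout lines 1.16 apart. Several of the genes that fell are also known targets of p53 (Sesn1, Gadd45a, Bbc3) or of the hypoxia response (Bnip3, Mxi1), so the list is not particular to Foxo factors. Other p53 targets did not fall. Mdm2, outside this list, rose (0.63), and Trp53inp1, within it, stood at 0.12 (limma adjusted p = 0.625). The part of p53 or of hypoxia in these differences was not tested. With every line kept, 28 of the 47 had an unadjusted limma p under 0.05 in either direction, as had 5368 of all 18194 genes. With a line left out, most or all of the list's calls lower were lost, and its median difference ranged from -0.43 to -0.20.

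**Figure D4:**
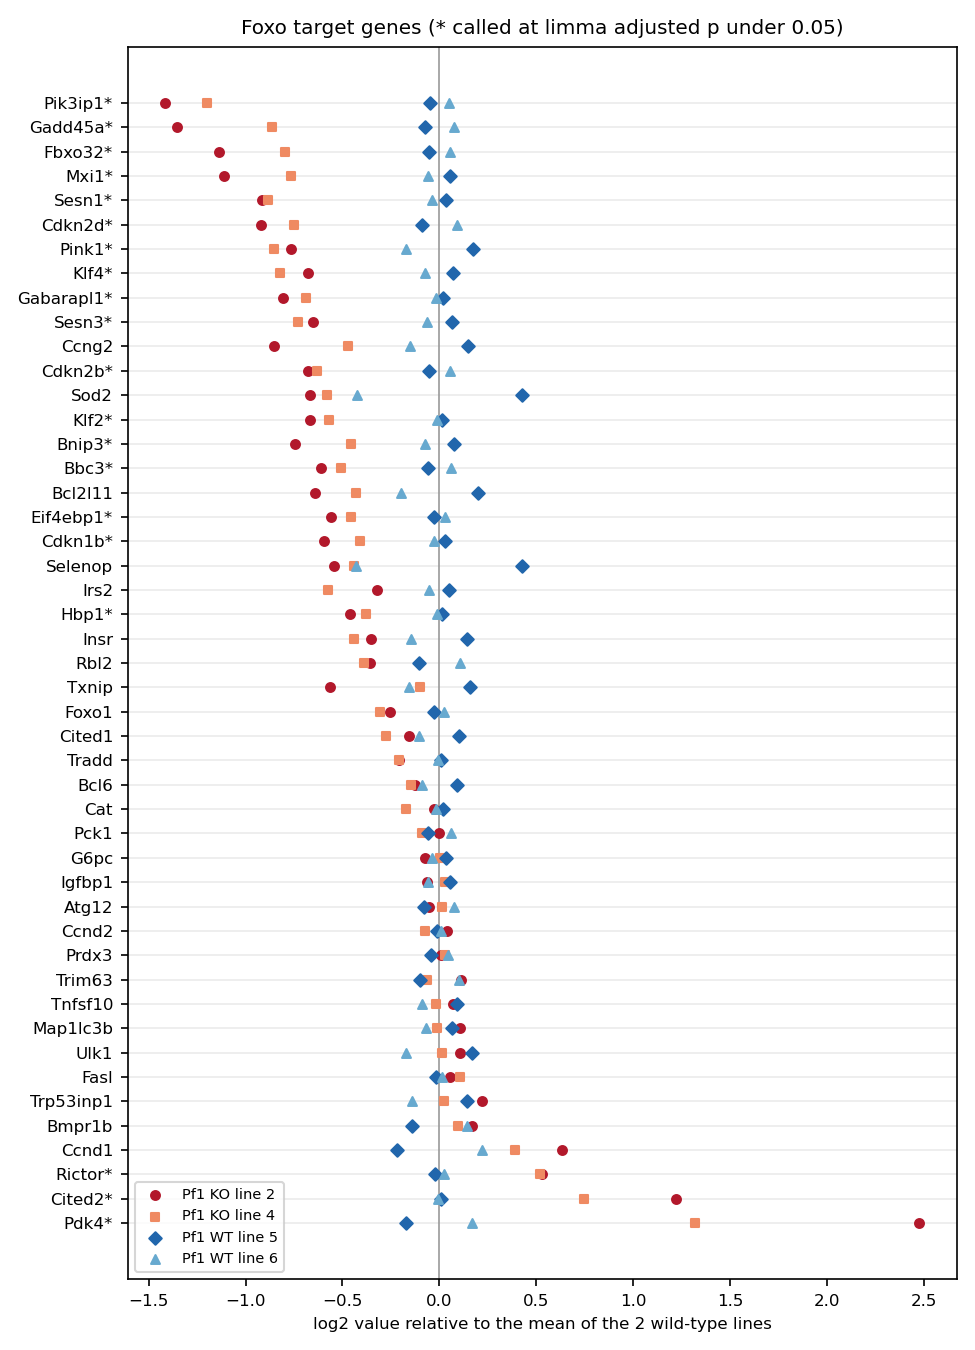
Log2 value in each line relative to the mean of the wild-type lines for the 47 measured Foxo target genes, sorted by difference, with called genes starred. Both knockout lines lie left of the wild-type lines for the 17 genes that fell, from Pik3ip1 (-1.31) to Hbp1 (-0.42), and right of them for Rictor, Cited2 and Pdk4.

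Promoters of Foxo targets that fell are shown with the forkhead core motif TAAACA (either strand, contained in GTAAACA) in capitals. Cdkn1b and Klf4 were chosen after their values were seen, because their windows hold the motif and begin at the outer end of the annotated gene. The Klf4 window overlaps the annotated gene Gm12506.
Cdkn1b, chr6:134920151-134920400, plus strand: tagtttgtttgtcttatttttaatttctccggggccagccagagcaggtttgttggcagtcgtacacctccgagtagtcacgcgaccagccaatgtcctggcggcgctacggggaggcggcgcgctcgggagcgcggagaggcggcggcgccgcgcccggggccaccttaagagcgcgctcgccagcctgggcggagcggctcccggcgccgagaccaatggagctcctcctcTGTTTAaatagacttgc
Klf4, chr4:55532476-55532725, minus strand: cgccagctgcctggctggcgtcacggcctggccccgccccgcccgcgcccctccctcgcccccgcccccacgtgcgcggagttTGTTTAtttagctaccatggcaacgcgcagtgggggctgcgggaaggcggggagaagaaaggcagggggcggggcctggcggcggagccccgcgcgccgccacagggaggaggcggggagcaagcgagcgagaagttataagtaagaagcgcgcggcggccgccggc
Cdkn1b stood at -0.37 and -0.19 in the knockout lines against 0.25 and 0.19 (-0.50 ± 0.0992 SE, limma adjusted p = 0.0398), and Klf4 at -0.30 and -0.44 against 0.45 and 0.30 (-0.75 ± 0.101, 0.0202). TAAACA was found for 6 of the 15 genes called lower that had a promoter entry (40%) and for 4 of the 24 other list members with one (16.7%), against 13.5% of all genes. The longer GTAAACA was found for 3 of 15 (20%) and 4 of 24 (16.7%), against 3.54%. These are matches of letters in any of a gene's windows, and genes with several annotated starts have more windows. The list was made of known Foxo targets, and its split by call comes from these same data. The shares are therefore not a test, and whether Foxo factors act at these promoters was not tested.

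Among upstream regulators of the Foxo factors limma called genes in the positive direction. The list was not divided by whether a gene promotes or restrains Foxo factors, so it gives no direction for Foxo activity. Of 32 measured genes, among them kinases, deacetylases, ubiquitin ligases and 14-3-3 proteins, 6 rose (18.8%, against 5.21% of all genes) and 26 did not pass. Limma called 0 lower (2 at an unadjusted p under 0.05). The genes that rose were the deacetylase gene Sirt1 (0.56), the AMP kinase subunit gene Prkaa1 (0.57), Rictor (0.52), the Hippo kinase gene Stk4 (0.54), the ubiquitin ligase gene Mdm2 (0.63) and the PI3 kinase subunit gene Pik3cb (0.62). Limma gave them adjusted p from 0.0241 to 0.0277. In either direction 10 of the 32 had an unadjusted limma p under 0.05, as had 5368 of all 18194 genes. The median over the list was 0.13, at 0.15 and 0.094 in KO2 and KO4. Without any 1 line the calls were lost, and the median over the list ranged from 0.094 to 0.15.

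Of 34 Foxm1 target genes of the mitotic program, limma called 2.94% higher and 2.94% lower, against 5.21% and 6.95% of all genes. There was 1 that rose, the kinetochore motor gene Cenpe (0.87 ± 0.132 SE, limma adjusted p = 0.0253), and 1 fell, the phosphatase gene Cdc25b (-0.72 ± 0.12, 0.0290). The other 32 did not pass, although 25 of the 34 differences were positive (median 0.20, with the wild-type lines at -0.11 and 0.11). Of 14 partners of Foxm1 in the MuvB and DREAM complexes, Mybl1, a Myb family activator, rose (1.03 ± 0.2, limma adjusted p = 0.0379), or 7.14% against 5.21% of all genes.

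Of 18 corepressors of the Foxp factors, limma called 16.7%, and of 18 partners of Foxk and other forkhead factors 11.1%, against 12.2% of all genes. Among the corepressors Ctbp2 rose (0.52), and Tle2 (-0.61) and the deacetylase gene Hdac3 (-0.42) fell. Among the partners Srf, the serum response factor gene, rose (0.76) and Mef2c, a MADS-box factor gene, fell (-0.91). For these 5 genes limma gave adjusted p from 0.0240 to 0.0421.

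Most genes around the mesenchymal members did not pass the test. In the hedgehog pathway, which acts upstream of Foxf genes, 1 of 20 genes fell (5% against 6.95% of all genes). It was the co-receptor gene Gas1 (-1.26 ± 0.16 SE, limma adjusted p = 0.0185). The usual pathway readouts Gli1 (0.019) and Ptch1 (-0.06) stood near 0. At an unadjusted limma p under 0.05, 7 of the 20 were lower and 0 higher. In either direction this held for 5368 of all 18194 genes. Of 26 regulators that work with Foxd1 in kidney stroma and nephron formation, 5 fell (19.2%, against 6.95% of all genes). They were the protocadherin genes Dchs1 (-0.89) and Fat4 (-0.58), the homeobox gene Hoxa11 (-0.68), the netrin gene Ntn1 (-0.49) and the receptor gene Pdgfrb (-0.52), with limma adjusted p from 0.0140 to 0.0453. Limma called 0 of the 26 higher (0 at an unadjusted p under 0.05). Of 10 measured kidney and metanephric stroma markers, Foxd1 among them, limma called Foxd1 alone (10% against 12.2% of all genes). Their median difference was -0.061, with 3 positive and 7 negative, and Lhx1 (0.18, limma adjusted p = 0.304) was the other marker higher in both knockout lines. Aldh1a2 (-1.34, limma adjusted p = 0.0985) and Tbx18 (-0.50, 0.0616) were lower in both knockout lines and did not pass. The part of kidney stroma cells in the Foxd1 difference was not tested. Of 27 partners of Foxc, Foxf and Foxl in mesenchyme and skeleton, the homeobox genes Meox1 (-2.82) and Meox2 (-1.99), Twist2 (-1.09) and the cartilage factor gene Sox9 (-0.51) fell, and Wnt5a rose (0.44). These are 14.8% lower against 6.95% of all genes, and 3.70% higher against 5.21%.

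Cell type markers were set against the same shares of all genes, 5.21% called higher and 6.95% lower. Of 14 fibroblast markers, 7 fell (50%) and 1 rose (7.14%), with a median difference of -0.55. Of 12 smooth muscle and pericyte markers, 6 rose (50%) and 1 fell (8.33%), with a median of 0.65. Relative to the wild-type mean, the fibroblast markers had medians of -0.58 and -0.59 in KO2 and KO4 and 0.11 and -0.11 in WT5 and WT6. Of 12 endothelial markers, 1 rose (8.33%) and 2 fell (16.7%), and of 12 neural markers, 1 rose (8.33%). Limma called 0 of 11 endoderm and liver markers (0 at an unadjusted p under 0.05) and 0 of 13 T cell and macrophage markers (0 at an unadjusted p under 0.05), the latter with medians of 0.005 and 0.76 in the knockout and 0.58 and -0.58 in the wild-type lines. Of 10 multiciliated cell markers, 1 fell (10%). The part of these cell types in the differences of forkhead genes was not tested. With a line left out, the counts called in the gene lists other than the Foxo targets dropped to 0, except for 0 to 1 lower in the hedgehog list and 0 to 3 lower among the Foxc, Foxf and Foxl partners.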

How the data were processed

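RNA of 4 arrays was measured, 2 per genotype. The deposited values are log2 signals made by the authors with Affymetrix Expression Console and RMA per the submitters' processing notes, which give no versions. The log base is that of the method. Each probe set's 4 values had a median of 0 within 1e-06, so the table had been centred by a step the labels do not describe, which removed expression levels. The series text names an array of which the deposited table is a larger version, and probe sets were named from the annotation that matched the table.

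Probe sets with 1 gene symbol (34958) were averaged per gene, giving 18194 genes. Symbols were updated through Entrez identifiers (0 changed). The difference between knockout and wild type came from limma 3.58.1 (lmFit, then eBayes, R 4.3.3) over all genes, without covariates (2 residual and 3.04 prior degrees of freedom), and over 45037 probe sets without controls. Benjamini-Hochberg adjustment ran over all of them, with calls at an adjusted p under 0.05. The fit was tested on simulated data. SE are those of the moderated fit. The number of arrays limits the precision.

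Members and gene lists were chosen with earlier results of these data known, and no test was made over a list. Named were all members, with values per line for those called or at least 1.5-fold apart without overlap, up to 6 called genes per list, the nearest measured neighbours of called members, and Phf12. Others, including Foxo1, Foxo4, Foxp1, Foxp2, Foxm1, Foxa1, Gli1, Ptch1 and genes that complete a count, were named after their values were seen. Alternatives are described in the closing section. Sequences are RefSeq's.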

Additional observations from a re-analysis of the deposited data

How the results depend on the processing

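Each of 7 alternatives that kept every line changed 1 choice: the median of a gene's probe sets, no _x_at, _s_at or _a_at probe sets, quantile normalisation, arrays centred on their medians, array weights, robust eBayes, and genes with a range under 0.2 left out. Of the called genes, Foxd1 and Foxn3 were called in all 7, Foxo3 in 6 and Foxn1 in 2. Foxc2 was called when genes with a small range were left out (limma adjusted p = 0.0216). That range spans all 4 arrays and so includes the genotype difference. The filter is thus not independent of the test, and the fit was redone on fewer genes. Members called higher numbered 1 in place of 2 with probe set medians, without _x_at, _s_at and _a_at probe sets, with quantile normalisation and with array weights. Without those probe sets, 1 member was called lower and 2 in all. With each line left out in turn, which leaves 1 residual degree of freedom, members called ranged from 0 to 1, those called higher from 0 to 1, those called lower from 0 to 0, forkhead probe sets called from 0 to 0 and genes called over the 9 lists from 0 to 10, against 4, 2, 2, 7 and 44 with all lines. The median difference of the members ranged from -0.011 to 0.030. No paired analysis was possible because no line number is shared by a knockout and a wild-type line. A prefix number in the titles is the same for every line, so it pairs none of them.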
